A study of Mus musculus with 4 samples.

Results

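Cytosolic ribosomal protein genes were followed across the leukocytes of the mouse ovary. The members were every gene in the deposited feature list whose symbol was Rps or Rpl followed by a number, with an optional a, x or l1 at the end, together with Rpsa, Rplp0, Rplp1 and Rplp2. This rule uses names only and took 78 of 32285 genes, 30 of the small (40S) and 48 of the large (60S) ribosomal subunit. Female C57BL/6J mice aged 10 to 12 weeks received gonadotropin, the hormone signal that drives follicle growth and ovulation, or saline, and their ovaries were taken 48 h later. Viable cells carrying CD45, the surface protein of leukocytes, were sorted, tagged with a hashtag antibody per mouse and pooled as 1 droplet library for the 5 gonadotropin mice and 1 for the 5 saline (untreated) mice. Treatment, pool and library therefore cannot be told apart in any comparison between the groups. Comparisons between cell types of the same mouse are made within a library.

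The ribosome builds all cellular protein, and most of its proteins are present in 1 copy per ribosome, so the genes of both subunits are usually expressed together. Many of their messages start with a C followed by a run of pyrimidines, the 5′ terminal oligopyrimidine (TOP) tract, through which growth signaling by mTORC1 controls their translation. In lymphocytes, quiescent naive cells are known for a high share of ribosomal protein messages in their small transcriptomes, and subsets with other histories differ in it.

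Start sites of members named in the results are printed here with their TOP-like tract in capitals, where there is one, from 10 bases before to 20 bases after the RefSeq start on build GRCm38.p6, 5′ to 3′ on the gene's strand. A tract was called where a C within 5 bases of the start was followed by at least 4 C or T bases without a break. The first 5 windows carry a tract. Another Rps24 start, with the window chr14:24490743-24490772, had none. A gene with several starts was counted as carrying a tract where any of them did.
Rpl35 (chr2:39005112-39005141, minus strand): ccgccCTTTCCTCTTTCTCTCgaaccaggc
Rpl13a (chr7:45128726-45128755, minus strand): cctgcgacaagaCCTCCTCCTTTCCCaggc
Rps27 (chr3:90213629-90213658, minus strand): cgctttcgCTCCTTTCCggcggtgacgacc
Rpl38 (chr11:114668570-114668599, plus strand): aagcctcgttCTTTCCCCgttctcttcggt
Rps24 (chr14:24490668-24490697, plus strand): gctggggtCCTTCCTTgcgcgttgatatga
In these 3 windows the search found none.
Rpl36a (chrX:134585644-134585673, plus strand): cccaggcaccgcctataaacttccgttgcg
Rplp0 (chr5:115559457-115559486, plus strand): cgggtttcgaggaccgcctggttctcctat
Rpl7l1 (chr17:46782637-46782666, minus strand): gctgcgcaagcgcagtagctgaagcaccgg

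RefSeq start windows were found for 58 of the 78 members, and 28 of these (48.3%) held such a tract, against 5718 of 27025 genes (21.2%) with a window. Rps20, Rps29 and Rpl29 were not among the 58. The match describes the letters at the annotated start and not the start used in these cells. The members lay on 19 chromosomes, with at most 14 on 1 of them, chromosome 7.

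The deposited tables held 6468 barcodes, 3215 untreated and 3253 gonadotropin, and 4918 cells with 1 hashtag passed the filters, 2495 and 2423 of them. Summed counts of unique molecular identifiers (UMIs, single captured transcripts) per mouse ran from 2559097 to 7097779. Ptprc, which encodes CD45, was at 1166 to 1752 CPM (UMI counts per 1000000) in every mouse, and 12 granulosa, theca and luteal cell markers summed to 6.28 to 55.1. Cells were assigned to a type by gates on marker UMIs that use no ribosomal protein gene. One gate took 4168 cells, no gate took 750, and 0 fell into more than 1. Only 2 barcode sequences occurred in both pools. In the gonadotropin library, 22 cells in 4 mice had over 1% of their UMIs from hemoglobin genes, against 0 in the untreated library, and 19 of the 22 lay in the follicular-type B cell gate.

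The share of all UMIs taken by the members differed widely between the cell types. It was highest in naive-type CD8 T cells at 32.995% ± 1.87 (SD, n = 10 mice) and naive-type CD4 T cells at 31.4% ± 2.01 (n = 10), followed by B-1-like B cells at 28.5% ± 2.51 (n = 10). Follicular-type B cells, the recirculating B cell type, had 22.4% ± 1.54 (n = 10) and memory-type CD4 T cells 21.0% ± 1.87 (n = 6). Memory-type CD8 T cells had 20.4% ± 2.14 over the 6 mice with at least 5 such cells. Macrophage-type cells at 15.3% ± 1.04 (n = 10) and natural killer (NK)-type cells at 14.7% ± 0.999 (n = 10) were lower. Neutrophil-type cells, granulocytes with little RNA, had 3.51% ± 0.79 over the 9 mice with at least 5 cells. Neighbors in this order overlapped: naive-type CD8 cells ran from 29.5% to 35.5% and naive-type CD4 cells from 27.5% to 34.1%. The lowest naive-type CD4 value of 27.5% was above the highest memory-type CD4 value of 23.7%.

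**Figure D1:**
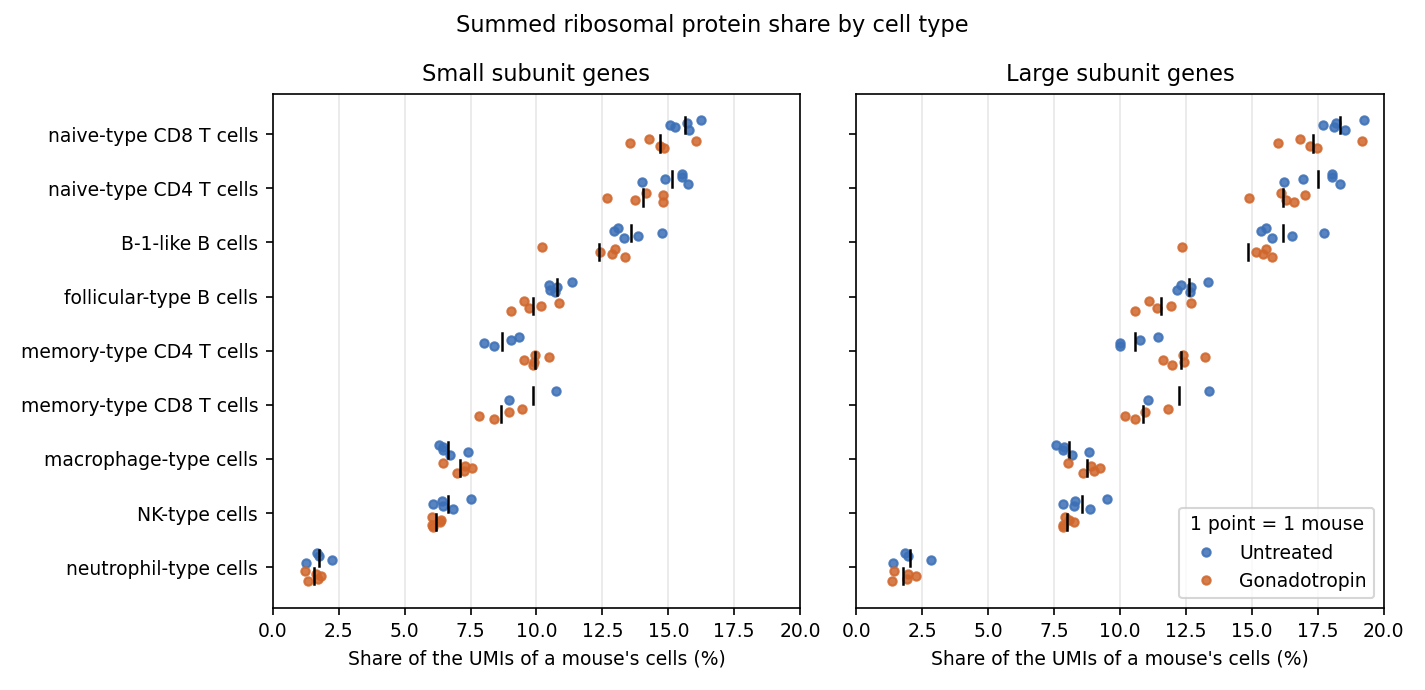
Share of a mouse's UMIs from small subunit genes (left) and large subunit genes (right) in percent, for 9 gated cell types. Each point is 1 mouse with at least 5 cells of the type, blue for untreated and orange for gonadotropin, and the black bar is the mean of the group. Both panels show the same order of types, from naive-type T cells down to neutrophil-type cells.

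Small and large subunit genes kept close to the same order over the types. Their means were 15.1% and 17.8% in naive-type CD8 cells, 14.6% and 16.8% in naive-type CD4 cells, 13.0% and 15.5% in B-1-like cells, and 10.3% and 12.1% in follicular-type cells. In NK-type cells they were 6.42% and 8.27%. The ratio of small to large subunit UMIs had its highest mean among the types of 10 mice in naive-type CD4 cells, 0.866, and its lowest in NK-type cells, 0.777. These shares are descriptions and carry no test.

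Levels of single members are given as CPM of a mouse's plain UMI total. The counts come from transcript 3′ ends and do not scale with transcript length. Rps24, a small subunit protein needed for maturation of the 18S rRNA, had the highest level of all members in all CD45+ cells, 7784 ± 883 (SD, n = 10) CPM, and in naive-type CD4 cells, 11179 ± 750. Rplp1, an acidic protein of the stalk that recruits elongation factors, reached 9508 ± 319 CPM in naive-type CD8 cells. The paralogs were far lower than their partners. Rpl22l1 had 645 ± 49.6 CPM in all CD45+ cells against 1767 ± 189 for Rpl22, and Rpl7l1 had 60.9 ± 4.72 against 2120 ± 174 for Rpl7. Ribosomal protein genes have many near-identical processed copies in the genome, so how the counting split reads between a gene and its copies is uncertain and was not tested.

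The make-up of the member UMIs differed between the types, and several members stood apart in neutrophil-type cells. Among other types, Rps19 took 1.01% of the member UMIs in NK-type and 1.97% in B-1-like cells. Rps29 took 2.70% in macrophage-type and 1.63% in B-1-like cells. Rps9, a small subunit protein that binds rRNA early in assembly, made up 6.11% ± 0.57 of the member UMIs in the 4 mice with at least 10 neutrophil-type cells. Of these mice, 1 was untreated and 3 received gonadotropin, so the neutrophil-type values lean to 1 library. Rps9 made up 1.25% ± 0.039 in naive-type CD4 cells, 1.19% ± 0.065 in NK-type cells and 1.87% ± 0.16 in macrophage-type cells (n = 10 each). Rps27a, which is made as a fusion with ubiquitin, took 4.42% ± 1.26 in neutrophil-type cells and 1.56% ± 0.072 in naive-type CD4 cells. Rpl41, the shortest of the large subunit proteins, took 3.03% ± 0.54 and 1.08% ± 0.048. Rps24 went the other way, at 1.23% ± 0.15 in neutrophil-type and 3.56% ± 0.12 in naive-type CD4 cells, as did Rps20, at 0.582% ± 0.13 and 2.35% ± 0.082. Macrophage-type cells lay between these 2 types, at 2.24% for Rps27a, 1.64% for Rpl41, 2.575% for Rps24 and 1.54% for Rps20. The means of NK-type cells did too, at 1.64%, 1.58%, 3.10% and 1.48% in the same order. Rpl13 and Rpl3 were also lower, at 1.12% ± 0.14 and 0.163% ± 0.097 in neutrophil-type and 2.20% ± 0.048 and 0.803% ± 0.061 in macrophage-type cells. The 4 neutrophil-type values of Rps9 ran from 5.34% to 6.73% and lay above the highest value of 2.07% in macrophage-type cells.

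**Figure D2:**
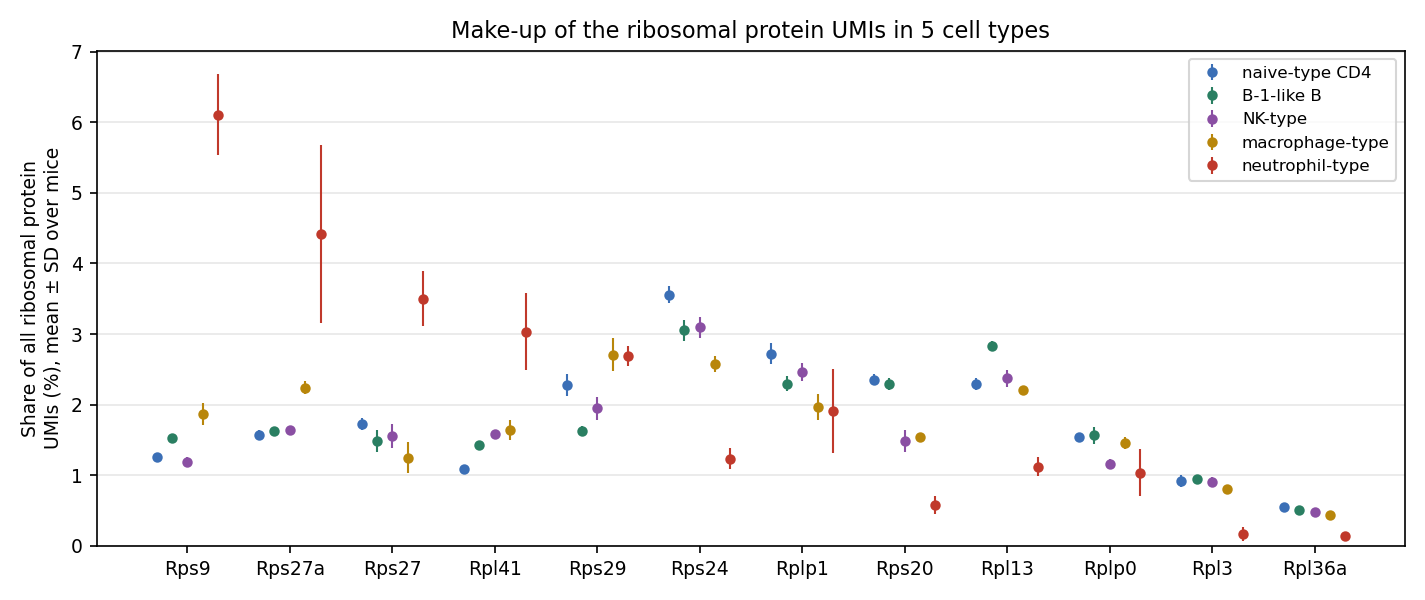
Make-up of the ribosomal protein UMIs: share of all member UMIs in percent (vertical) of 12 members (horizontal) in 5 cell types, as mean and SD over 10 mice, or 4 mice for neutrophil-type cells. Of those 4, 1 was untreated and 3 received gonadotropin. Rps9, Rps27a, Rps27 and Rpl41 are higher in neutrophil-type cells than in the other types drawn, and Rps24, Rps20, Rpl13, Rpl3 and Rpl36a are among those lower.

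Naive-type CD4 T cells, gated on markers that include Ccr7, Lef1 and Igfbp4, were compared with memory-type CD4 T cells, gated on S100a4, S100a6, Itgb1, Cxcr3 and Cd44, within the same mice. Nearly all ribosomal protein genes were higher in naive-type cells. Of 77 members with enough counts, 76 rose toward naive-type cells and 0 toward memory-type cells at an adjusted p of 0.05 (edgeR quasi-likelihood test, mouse as block, 6 mice). These were 30 of 30 small and 46 of 47 large subunit genes. Among all genes tested, 23.3% of 2324 were called, 12.3% higher and 11% lower in naive-type cells. The median log2 difference of the members was 0.77, 0.77 for the small and 0.75 for the large subunit, beside a median of -0.00 over all genes. The single untested member was Rpl7l1. In every one of the 6 mice, 74 of the 77 members were higher in naive-type cells, and the matching share of all genes is not given. For 58 members the naive-type and memory-type values did not overlap, beside 12.7% of all genes tested. Median depth was similar, 7630 UMIs per naive-type and 7783 per memory-type cell.

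In the small subunit, Rps20, a protein of its head, had 8557, 8883 and 8874 TMM-scaled CPM in naive-type cells of the 3 untreated mice and 7963, 6161 and 7019 in the 3 gonadotropin mice. In memory-type cells of the same mice it had 3301, 3137 and 3022, and 3735, 3504 and 3969. The lowest naive-type value was well above the highest memory-type value. The log2 difference was 1.19 ± 0.12 (SE; edgeR adjusted p = 2.61e-09). Rps29, a zinc-binding protein of the same region, had 8258, 8119, 8412, 7355, 6121 and 6291 in naive-type cells and 3682, 3474, 3380, 3555, 3522 and 3298 in memory-type cells, in the same order of mice. Its groups did not overlap either, and the log2 difference was 1.08 ± 0.12 (edgeR adjusted p = 5e-09). Rps19, the gene most often mutated in Diamond-Blackfan anemia, rose by 1.04 on the log2 scale. Rps6, the target of S6 kinase, rose by 0.78, Rps27a by 0.77, Rps3, a protein of the messenger entry channel, by 0.76, and Rpsa, also known as the laminin receptor precursor, by 0.61. Rps12 had the smallest log2 difference of the small subunit, 0.44 ± 0.13, and was higher in naive-type cells of 5 of 6 mice.

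In the large subunit, Rpl36a, a protein near the exit site for transfer RNA, rose by 1.13 ± 0.14 on the log2 scale, and Rpl35, at the peptide exit tunnel, by 1.05 ± 0.13. Rplp0, the base of the stalk, had 5404, 5748, 6016, 4955, 4228 and 4858 TMM-scaled CPM in naive-type and 2787, 2362, 1823, 3053, 2476 and 3170 in memory-type cells, untreated mice first. Its groups did not overlap and its log2 difference was 1.003 ± 0.13. The other stalk proteins Rplp1 and Rplp2 rose by 0.95 and 0.71. Rpl5 and Rpl11, which join the ribosome with 5S rRNA and can bind Mdm2, rose by 0.99 and 0.75. Rpl10, a late-joining protein, rose by 0.80, Rpl7 by 0.90 and Rpl22 by 0.63. Rpl38, known for its part in translating Hox messages, rose by 0.54, and the paralog Rpl22l1 by 0.52.

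Large subunit genes held the low end of the range. Rpl29 had 1865, 1699, 1743, 1508, 1428 and 1585 TMM-scaled CPM in naive-type cells and 1059, 1137, 1106, 2167, 1422 and 1719 in memory-type cells. The untreated mice were all higher in naive-type cells, and 2 of the 3 gonadotropin mice were higher in memory-type cells. Over the 6 mice the log2 difference of 0.23 ± 0.15 did not pass (edgeR adjusted p = 0.312). Rpl13a, which also has a part in translational control by interferon gamma, had a log2 difference of 0.33 ± 0.12 (edgeR adjusted p = 0.0457), and Rpl27 of 0.36 ± 0.12 (edgeR adjusted p = 0.0256). The calls of Rpl13a, Rpl27, Rps12 and Rpl22l1 ended with plain UMI totals and with cells of 3000 to 12000 UMIs, and that of Rpl13a also with DESeq2. Leaving out 1 mouse ended the call of Rpl13a for untreated mouse 1, 2 or 5 and gonadotropin mouse 4, that of Rpl27 for untreated mouse 1, 2 or 5, that of Rpl22l1 for untreated mouse 1 or 5, and that of Rps12 for untreated mouse 2.

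**Figure D3:**
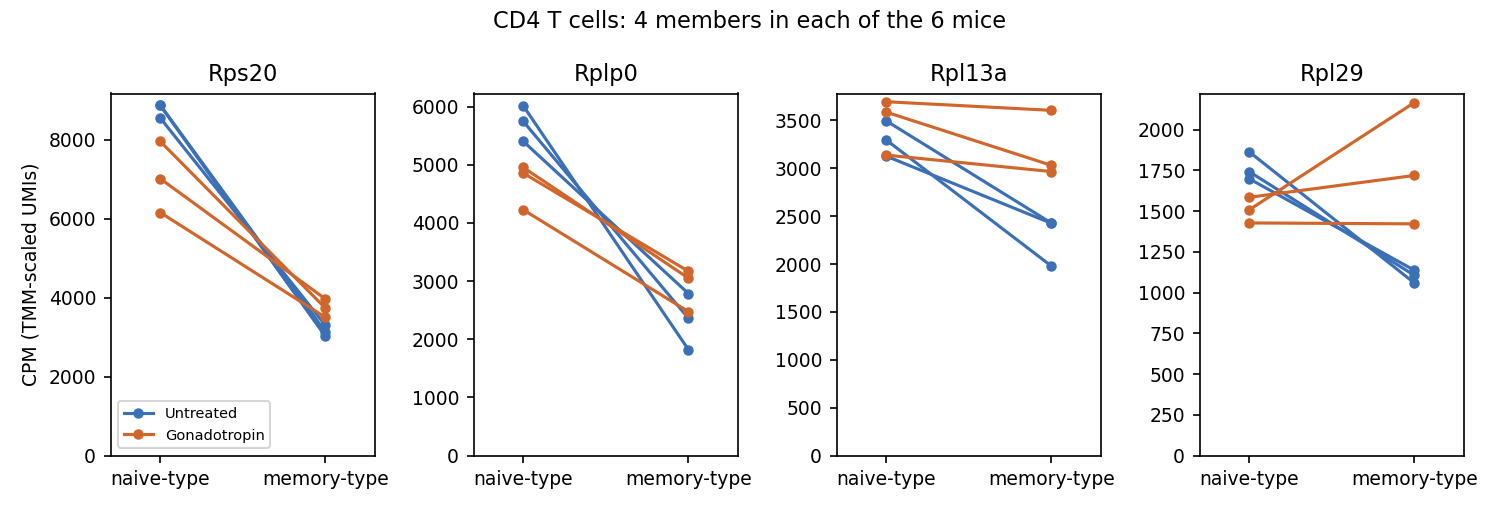
TMM-scaled CPM (vertical) of Rps20, Rplp0, Rpl13a and Rpl29 in naive-type and memory-type CD4 T cells. Each line joins the 2 values of 1 mouse, blue for untreated (3 mice) and orange for gonadotropin (3 mice); all lines fall for Rps20 and Rplp0, and the lines of Rpl29 run in both directions.

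The CD8 T cells gave a comparable range of values. At least 10 memory-type CD8 cells were found in too few mice for a test, so the minimum was set to 5 cells after seeing the data, which left 2 untreated and 4 gonadotropin mice. All 77 members tested passed and were higher in naive-type cells (edgeR, mouse as block), and each was higher in all 6 mice. Of all genes, 21.5% were called and 12% were higher, and the share higher in all 6 mice is not given. Mitochondrially encoded genes, whose level can mark RNA quality, were higher too: 10 of 12 tested rose in naive-type CD8 cells (median log2 0.56), with mt-Cytb at 0.70 and mt-Nd3 at 0.69, against 0 of 12 in CD4 cells (median 0.20). Their part in the member difference was not tested. The median log2 difference of the members was 0.84, 0.88 for the small and 0.83 for the large subunit, beside -0.04 over all genes. Rps20 again had the largest difference, 1.31 ± 0.09 on the log2 scale (edgeR adjusted p = 8.64e-10). It had 8881 and 8468 TMM-scaled CPM in naive-type cells of the untreated mice and 7452, 8925, 6694 and 7910 in those of the gonadotropin mice, against 4241, 3180, 3392, 3061, 2728 and 2961 in memory-type cells. These values did not overlap. Rps19 rose by 1.25, Rpl35 by 1.24 and Rpl36a by 1.22 on the log2 scale. Rpl13a had the smallest difference, 0.37 ± 0.09, followed by Rpl7a with 0.43, Rpl27 with 0.45 and Rpl29 with 0.49. The CD8 and CD4 comparisons share mice and libraries. The calls of Rpl13a and Rpl7a ended with plain UMI totals. That of Rpl7a also ended with DESeq2 and without untreated mouse 5, gonadotropin mouse 2 or gonadotropin mouse 4, and that of Rpl13a with cells of 3000 to 12000 UMIs.

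In B cells the members were lower in follicular-type cells than in B-1-like cells, an innate-like subset gated on Zbtb32, Bhlhe41, Il5ra, Fcrl5 and Mzb1. All 78 were tested in 10 mice, and 76 fell in follicular-type cells and 0 rose (edgeR, mouse as block). Of all genes, 43.1% were called and 22.4% were lower. The median log2 difference (follicular-type minus B-1-like) was -0.51, -0.55 for the small and -0.48 for the large subunit, and 0.01 over all genes. In all 10 mice, 59 members were lower in follicular-type cells, and for 27 of the 78 the values of the 2 types did not overlap. The matching shares of all genes are not given for these 2 counts. Rplp0 stood at the end of the range. It had a lowest, median and highest value of 1891, 2228 and 2616 TMM-scaled CPM in follicular-type cells and of 2717, 4820 and 6126 in B-1-like cells, which did not overlap. It fell by 1.09 ± 0.07 on the log2 scale (edgeR adjusted p = 1.51e-14). Rps12, a protein of the small subunit beak, fell by 0.89 ± 0.07 and Rpl32 by 0.81. Rpsa fell by 0.64, Rplp1 by 0.66, Rplp2 by 0.42, Rps6 by 0.65, Rps27a by 0.70, Rpl5 by 0.42 and Rpl11 by 0.52.

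Rps27, a zinc-binding small subunit protein, and Rpl7l1 did not pass in B cells. Rps27 had a lowest, median and highest value of 3724, 4262 and 4954 TMM-scaled CPM in follicular-type and 2857, 4542 and 5409 in B-1-like cells, which overlapped widely. Its log2 difference was -0.06 ± 0.06 (edgeR adjusted p = 0.495). Without gonadotropin mouse 1, which had 22 B-1-like cells, Rps27 passed. Rpl7l1 had -0.03 ± 0.10 (edgeR adjusted p = 0.832). Rps29 and Rps21 fell by 0.22 and 0.21, and both calls ended with plain UMI totals and with cells of 3000 to 12000 UMIs. Depth moved with this comparison. The median was 5880.5 UMIs per follicular-type and 13591.5 per B-1-like cell, and in untreated B-1-like cells the summed share rose from 25.3% in cells of 5000 to 8000 UMIs to 30.8% in cells of 12000 to 20000 UMIs. With cells of 3000 to 12000 UMIs of both types, 60 members were called, all lower in follicular-type cells, with a median of -0.32. The difference in summed share (B-1-like minus follicular-type) then shrank from 2.66 to 1.53 percentage points for the small and from 3.43 to 1.91 for the large subunit. Depth still differed within this window. At 5000 to 8000 and at 8000 to 12000 UMIs there were 459 and 117 untreated follicular-type cells, against 55 and 145 B-1-like cells.

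**Figure D4:**
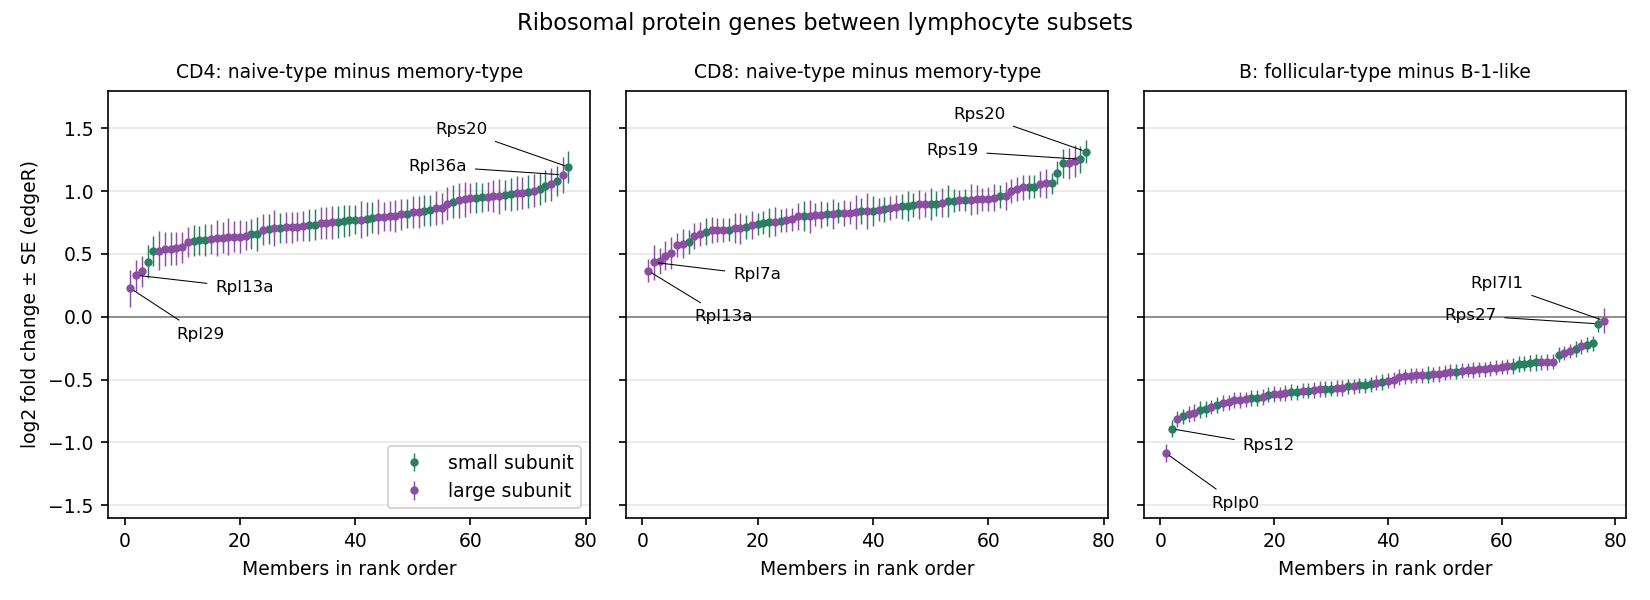
log2 fold change with SE from edgeR (vertical) of each tested member, in rank order (horizontal), for CD4, CD8 and B cell subsets. Green marks small and purple large subunit genes; all points lie above 0 in both T cell panels, and all lie below 0 in the B cell panel, where Rps27 and Rpl7l1 are nearest to it.

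Members with and without a TOP-like tract at the RefSeq start had close medians. In CD4 cells the median log2 difference was 0.75 over 28 members with a tract and 0.77 over 29 without. In CD8 cells it was 0.81 and 0.84, and in B cells -0.44 and -0.51. Both Rpl35, near the top of the T cell range, and Rpl13a, near its bottom, carry a tract among the printed starts, and Rplp0 and Rpl36a do not.

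Other genes of ribosome production and translation were counted beside the members. The ribosomal proteins that the name rule misses, such as Rps3a1 and Fau, rose in naive-type CD4 cells for 4 of 5 tested genes of the small and 0 of 2 of the large subunit. In a list of 18 other genes with TOP messages, mostly translation factors, 10 rose and 2 fell in naive-type CD4 cells (median log2 0.44). Eef1b2, an exchange factor of elongation, rose by 0.88, Tpt1 by 0.80, and the fallers were Vim, which encodes a filament protein, and Ybx1. All 4 tested noncoding hosts of small nucleolar RNAs rose, with Snhg1 at 1.67 on the log2 scale. Of 8 biogenesis factors, 4 rose and 0 fell, with Fbl, the rRNA methyltransferase, at 0.98 and Npm1 at 0.95. In contrast, 0 of 10 mitochondrial ribosomal protein genes and 0 of 7 genes of the mTORC1 and Myc list passed in either direction, with medians of -0.17 and 0.21. In follicular-type against B-1-like cells, all 18 genes of the TOP list fell (median -0.57), as did 18 of 26 biogenesis factors. So did 12 of 13 genes of the mitochondrial genome and 35 of 76 for the mitochondrial ribosome. There, Myc, the growth regulator, fell by 1.57 on the log2 scale. The part of the mitochondrially encoded genes in the member difference of B cells was not tested. The fits are those given above for each comparison.

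The naive-type against memory-type difference in CD4 cells was smaller in the gonadotropin library. The term for subset by treatment was negative and passed for 50 of 77 members and was positive and passed for 0 (edgeR quasi-likelihood test), 20 of 30 small and 30 of 47 large subunit genes, against 2.52% of all genes called and 2.06% lower. Its median over the members was -0.52, beside -0.01 over all genes. Within the library, the median of the members' mean log2 ratios of naive-type to memory-type cells was 1.03 in the 3 untreated and 0.53 in the 3 gonadotropin mice. All 77 ratios were above 0 in the untreated library and 76 in the gonadotropin library, Rpl29 being the other one.

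Rpl6, a large subunit protein, had the largest term. In this fit it had 3423, 3786 and 3607 TMM-scaled CPM in untreated naive-type and 1530, 1479 and 1392 in untreated memory-type cells. In gonadotropin mice it had 3258, 2454 and 2821 in naive-type and 2529, 2261 and 1954 in memory-type cells. The memory-type values were all higher in the gonadotropin mice and the naive-type values all lower. The log2 term was -0.95 ± 0.14 (edgeR adjusted p = 7.65e-05). Rpl29 followed with -0.90 ± 0.17, and Rpl32 and Rpl3, the latter near the peptidyl transferase center, with -0.83 each. Rpl12 and Rplp2 of the stalk region had -0.12 ± 0.12 and -0.22 ± 0.12 and did not pass, nor did Rps15 with -0.24 and Rps25 with -0.25. Of the members of special role, Rpsa, Rplp0, Rps6, Rps27a, Rps19, Rpl11, Rpl38, Rps3 and Rpl7 passed, with terms from -0.63 to -0.52. Rplp1, Rpl13a, Rpl5, Rpl10, Rps29, Rpl22 and Rpl22l1 did not, with terms from -0.60 to -0.31.

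The count of 50 rests on few cells, 34 untreated and 41 gonadotropin memory-type cells. It was 27 without gonadotropin mouse 4, 32 without untreated mouse 5 or gonadotropin mouse 3, and 21 with plain UMI totals. Marker levels of the gates moved with the libraries: the naive markers summed to 1832 to 2576 CPM in naive-type cells of untreated and 2380 to 3090 in those of gonadotropin mice, and the memory markers to 2757 to 3440 and 1941 to 4261 in memory-type cells. In memory-type cells of 5000 to 8000 UMIs, the pooled member share was 20.16% in 27 untreated and 20.02% in 26 gonadotropin cells. The part of marker level and depth in the term was not tested. For CD8 cells 0 members had a term that passed (1 at an unadjusted p under 0.05, 0 by DESeq2; 0.0558% of all genes called), and for B cells 0 (0 unadjusted, 0 by DESeq2; 0.024% called).

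Between the treatment groups, the members were lower in gonadotropin mice when all CD45+ cells were summed. Of 78 members, 60 fell and 0 rose (edgeR, 5 against 5 mice), 22 of 30 small and 38 of 48 large subunit genes. Of all genes tested, 9.12% were called and 4.15% were lower. The median log2 difference of the members was -0.29, and -0.00 over all genes. The groups did not overlap for 57 members, beside 8.66% of all genes. The summed share was 25.8% ± 1.26 (24.6% to 27.4%) in untreated and 21.8% ± 1.28 (20.3% to 23.7%) in gonadotropin mice, and 22.1% ± 1.15 in the latter without the hemoglobin-rich cells. The test on these sums does not separate fewer cells of a type from less RNA per cell. The gates took 477 untreated and 212 gonadotropin B-1-like cells, and 830 and 797 follicular-type cells. Naive-type CD4 cells numbered 174 and 142, and naive-type CD8 cells 188 and 141. NK-type cells numbered 179 and 358, macrophage-type cells 134 and 226, and neutrophil-type cells 36 and 71. The 4 B cell markers all fell, and their sum was 2457 to 2770 CPM in untreated and 1652 to 2110 in gonadotropin mice. Summed NK cell markers were at 164 to 272 and 206 to 635, macrophage markers at 175 to 407 and 256 to 952, and neutrophil markers at 326 to 1223 and 1021 to 1598. The types these mark differ in member share as given above, and their part in the difference was not tested.

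Rps27 had 5048, 4438, 4446, 4319 and 4376 TMM-scaled CPM in the untreated and 3204, 3542, 3080, 3422 and 3219 in the gonadotropin mice. The groups were apart, and the log2 difference was -0.46 ± 0.06 (edgeR adjusted p = 0.00138). Rpl3 fell by 0.45, Rpl39, a small protein of the exit tunnel, by 0.44, Rpl36 by 0.43, Rpl38 by 0.41, Rplp0 by 0.40 and Rpsa by 0.35. Rps19 fell by 0.38 and Rps3 by 0.34. Rpl5 and Rpl11, partners in the 5S particle, had log2 differences of -0.00 and -0.29, of which only that of Rpl11 passed. Rpl23a, which docks the signal recognition particle at the tunnel exit, had 1400, 1221, 1456, 1247 and 1294 in the untreated and 1234, 1537, 1412, 1434 and 1353 in the gonadotropin mice, and these overlapped. Its log2 difference of 0.08 ± 0.07 did not pass (edgeR adjusted p = 0.562). Rps15, in the small subunit head, and Rpl13a had 0.02 and -0.04 and did not pass either. The call of Rplp1 ended without untreated mouse 3 or gonadotropin mouse 3. That of Rps27a held in only 3 of the 10 fits that left out 1 mouse, those without untreated mouse 2 or gonadotropin mouse 1 or 2.

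Within single cell types the differences were smaller and few passed. In follicular-type B cells, 2 of 78 members fell and 0 rose, with 1.42% of all genes called and 0.626% lower. Rpl38 had 2672, 2391, 2602, 2669 and 2484 TMM-scaled CPM in untreated and 2160, 2360, 2253, 2163 and 2102 in gonadotropin mice, a log2 difference of -0.22 ± 0.06 (edgeR adjusted p = 0.0459). Rps27 had 5257, 4605, 4672, 5006 and 4615 against 4186, 4362, 4430, 4109 and 3942, a difference of -0.20 ± 0.05 (edgeR adjusted p = 0.0491). Both groups of values were apart by a small margin, and both calls ended in 9 of the 10 fits that left out 1 mouse. The summed share was 23.4% ± 0.81 in untreated and 21.4% ± 1.496 in gonadotropin mice, and 22.2% ± 0.93 in the latter without the hemoglobin-rich cells. In naive-type CD4 T cells, Rpl36 (-0.39 ± 0.09) and Rpl3 (-0.36 ± 0.08) fell, both with an edgeR adjusted p of 0.0488, and 0.285% of all genes were called, 0.171% being lower. Rpl3 had 3348, 3423, 2969, 3159 and 3410 in untreated and 2606, 2865, 2230, 2535 and 2444 in gonadotropin mice, which did not overlap. Both calls ended in 8 of the 10 fits that left out 1 mouse.

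In 3 other types of 5 against 5 mice, 0 members passed with edgeR. In B-1-like cells 9 had an unadjusted p under 0.05 and DESeq2 called 1 (0.198% of all genes called by edgeR). In naive-type CD8 cells these were 30 and 2, 1 higher and 1 lower (0.577% called by edgeR). In NK-type cells they were 30 and 6 (0.0184% called by edgeR). These shares of all genes count edgeR calls at an adjusted p of 0.05. Shares at an unadjusted p under 0.05 or by DESeq2 are not given, so those member counts have no matching background. The median log2 difference of the members was -0.13 in each of these, -0.09 in follicular-type and -0.17 in naive-type CD4 cells. Rpl23a had log2 differences of 0.18 in follicular-type, 0.20 in B-1-like, 0.19 in naive-type CD4, 0.26 in naive-type CD8 and 0.23 in NK-type cells, none of which passed in edgeR. For Rps15 these were 0.16, 0.15, 0.24, 0.25 and 0.14, and none passed in edgeR. Leaving out gonadotropin mouse 2 brought the count in naive-type CD8 cells to 26, with 25 lower and 1 higher. The share of all genes called in that fit is not given, so this count has no background beside it either. All these types come from the same mice and libraries, so a member's values in different types are not separate evidence.

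Macrophage-type and neutrophil-type cells were not tested between the groups. Without hemoglobin-rich cells, the summed share in macrophage-type cells was 14.7% ± 0.92 in untreated and 15.9% ± 0.83 in gonadotropin mice. In neutrophil-type cells it was 3.75% ± 0.997 and 3.32% ± 0.64, and the ranges overlapped in both types. Among the tested types, memory-type CD4 cells had values on the other side of 0. Of 77 members, 73 had a positive log2 difference, with a median of 0.23 beside -0.00 over all genes. In edgeR 0 passed (3 against 3 mice), with 0.102% of all genes called. An unadjusted edgeR p under 0.05 was found for 24 members and DESeq2 called 3, again without matching shares of all genes. Rpl29 had 1137, 1224 and 1189 TMM-scaled CPM in untreated and 2303, 1492 and 1825 in gonadotropin mice. These did not overlap, and the log2 difference was 0.65 ± 0.17 (edgeR adjusted p = 0.107). Rpl6 had 0.58 ± 0.15 and Rps12 0.53 ± 0.13. Values of the 2 groups did not overlap for 29 members, beside 13.9% of all genes tested. Memory-type CD8 cells were compared with the minimum of 5 cells, in 2 untreated and 4 gonadotropin mice with 15 and 36 such cells. Of 77 members tested, 69 had a negative log2 difference, with a median of -0.24 beside 0.01 over all genes. In edgeR 0 passed, with 0% of all genes called. An unadjusted edgeR p under 0.05 was found for 10 members and DESeq2 called 0, also without matching shares of all genes. The summed share was 20.03% and 24.1% in the untreated mice and 19.5% ± 1.40 (17.99% to 21.3%) in the gonadotropin mice, which overlapped. Values of single members did not overlap between the groups for 31, beside 13.7% of all genes tested. Rpl35 had the lowest log2 difference, -0.57 ± 0.25 (edgeR adjusted p = 0.971), and Rpl13a the highest, 0.22 ± 0.18 (edgeR adjusted p = 0.971). The median was -0.10 without untreated mouse 2, -0.36 without untreated mouse 5 and -0.07 with the short gate. Whether memory-type CD4 and CD8 cells differ in the treatment difference was not tested.

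**Figure D5:**
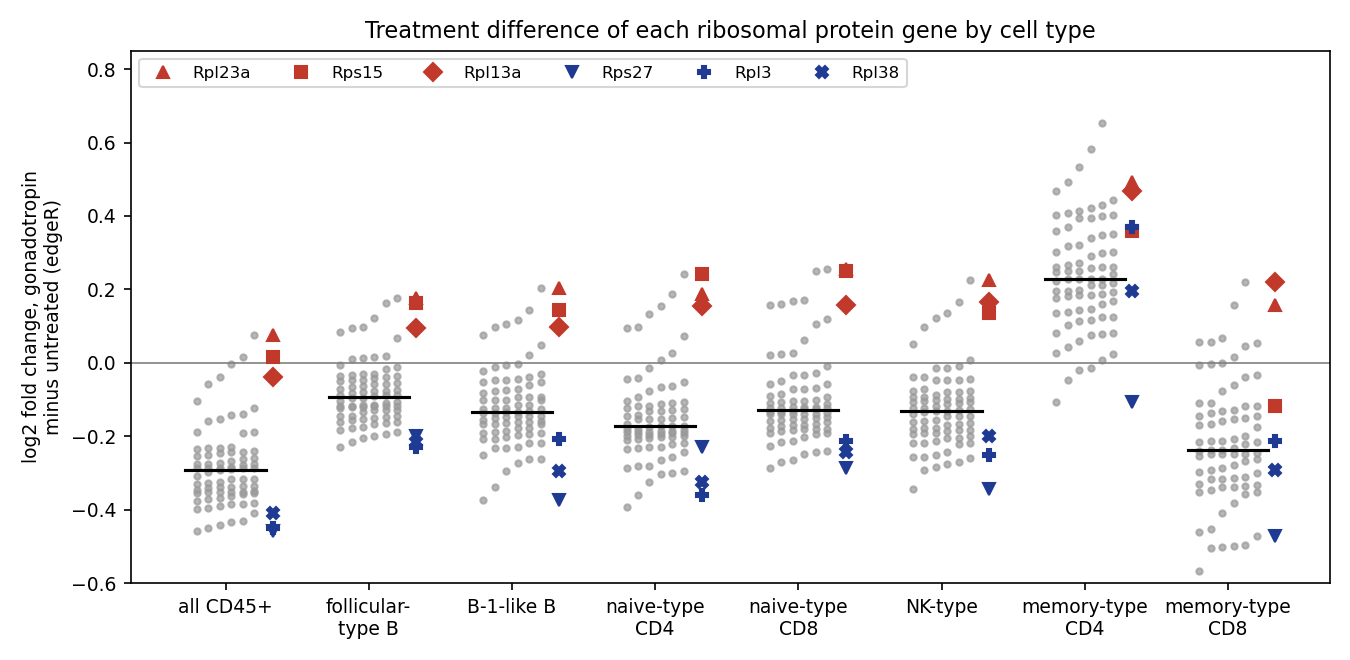
log2 fold change between gonadotropin and untreated mice from edgeR (vertical) of each member, in all CD45+ cells and 7 gated types (horizontal). Grey points are members, the black bar is their median (-0.29 in all CD45+ cells, 0.23 in memory-type CD4 and -0.24 in memory-type CD8 cells), and colored symbols repeat 6 named members beside each column.

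Around the members, 10 of the 18 genes of the TOP list fell in all CD45+ cells and 0 rose (median log2 -0.24). Of 27 biogenesis factors 10 fell, as did 4 of 8 noncoding hosts of small nucleolar RNAs and 12 of 13 mitochondrially encoded genes. Mitochondrial ribosomal protein genes fell for 5 of 78, with a median of -0.13. The level of mitochondrially encoded genes can mark RNA quality, and their part in the member difference was not tested. In the list of mTORC1 and Myc, Myc fell by 0.90 on the log2 scale and Mxd1, a Myc antagonist, rose by 0.61, and the other 17 did not pass. Of 12 stress genes that can mark dissociation, 2 rose and 5 fell. Hspa1b, a heat shock gene, rose by 1.76 and the immediate early gene Fos fell by 0.80.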

How the data were processed

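Counts were the whole-number UMIs per gene and barcode that the authors deposited without normalization, with their hashtag calls, and the deposited hashtag margin, a score per the file headers, was not used. Seurat, Cell Ranger, bcl2fastq and build mm10 appear, without versions or settings, in the processing notes of the submitters; how the 3′ reads were assigned to near-identical genes is not given in the sources used here. Kept cells had 1 hashtag, 500 or more genes and less than 10% of UMIs from mitochondrial genes, which left out 1348 hashtag doublets, 89 negative barcodes and 113 others, and each was gated by marker sums. Counts were summed per mouse, the replicate, and type (at least 10 cells) and tested with edgeR 4.0.16 in R 4.3.3 (TMM, filterByExpr, quasi-likelihood; CPM are per 1000000 TMM-scaled UMIs where so named), with Benjamini-Hochberg adjustment over all genes at 0.05. Subsets of the same mice were compared with the mouse as a block. The procedure was run on simulated counts in which genes picked at random rose or fell in equal numbers. That run did not shift the members together, so it does not check their calls. Tract searches, shares and figures used Python 3.11.15. Named members were the 4 highest and 4 lowest differences of a comparison and those of special role, and in other lists the 2 highest and 2 lowest genes; an item that the rule names is not reported here. Members, lists and gates were chosen with earlier results of these data known. Other scalings, DESeq2 1.42.0, filters, depths, gates and left-out mice were tried. The lowest deposited barcode total was 501 UMIs. Regulatory-type T cells (24.8% ± 2.97 member share, 5 mice), macrophage-type cells and neutrophil-type cells were not tested.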

Additional observations from a re-analysis of the deposited data

Results flagged for a closer look

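In 42 sets of 5 values, summed shares and subunit ratios were searched for a mouse far from the other 4. Each set was 1 measure in 1 type and treatment group, so sets share mice and cells. Chance marks about 1 in 20 sets. The ratio of small to large subunit UMIs was 0.867 in follicular-type B cells of untreated mouse 4 and 0.861 in those of gonadotropin mouse 1, both apart from the other mice of the group. In naive-type CD4 T cells of untreated mouse 3 it was 0.877. The summed large subunit share in B-1-like cells of gonadotropin mouse 1 was 12.4%, below the other 4 gonadotropin mice, and rests on 22 cells. The difference between naive-type and memory-type CD4 T cells itself differed between the groups for 50 members by the edgeR term for subset by treatment.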

How the results depend on the processing

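Subset calls ran from 67 to 76 members in CD4, 60 to 76 in B and 75 to 77 in CD8 cells over the settings. Shares of all genes called are not given for the other settings or left-out mice in this section. Without single mice they ran from 73 to 76, 76 to 77 and 76 to 77. The 60 in B cells came with cells of 3000 to 12000 UMIs. With no replicate block the subset calls were 76, 76 and 77, so the block changed no count. The treatment count in all CD45+ cells ran from 56 to 66, and from 46 to 66 without single mice. Plain UMI totals moved the median of all genes by -0.19 in CD4, 0.18 in B and -0.21 in CD8 subsets and by 0.13 in the CD4 term, and gave 21 members for that term (27 to 48 without single mice). In the treatment comparison, follicular-type cells (2 members) had 1 with DESeq2 size factors, 7 with plain totals, 9 with totals without the members, 10 with DESeq2 (8 lower, 2 higher), 0 with no filter or the strict gate, 4 with cells of 3000 to 12000 UMIs or without hemoglobin-rich cells, 8 with the short gate and 0 to 9 without single mice. Naive-type CD4 cells (2) had 4 with DESeq2, 8 with at least 20 cells, 0 with cells of 3000 to 12000 UMIs and 0 to 5 without single mice. Of types with 0 calls, B-1-like cells had 1, memory-type CD4 cells 3 and NK-type cells 6 with DESeq2, and memory-type CD4 cells 3 with no filter. Naive-type CD8 cells had 2 with plain totals or DESeq2 (1 lower and 1 higher each), 1 with totals without the members or the short gate, and 0 to 26 (25 lower, 1 higher) without single mice. Memory-type CD4 calls were higher in gonadotropin mice, and other treatment calls not split here were lower. Memory-type CD8 cells had 0 calls and were not run with at least 20 cells or with cells of 3000 to 12000 UMIs. The B cell term had a median of 0.06, which became -0.0021 with plain totals and -0.0456 to 0.1115 without single mice. That of CD8 cells, 0.107, became -0.0067 with no filter, -0.0406 with the short gate, and -0.0365 to 0.219 without single mice; an untreated mouse left alone by this is assumed to vary like the others. With cells of 3000 to 12000 UMIs, the share differences were 1.53 (small) and 1.91 (large) percentage points in B cells and 6.93 (small) in CD8 cells. The cause was not tested. The CD8 subset and memory-type minimum of 5 cells and the hemoglobin setting were chosen after seeing the data. The CD4 and CD8 terms were not run with cells of 3000 to 12000 UMIs. Subsets were paired within mice. Between treatment groups, no paired analysis was possible because mouse numbers name different animals in the 2 pools. Few memory-type cells (98 CD4, 61 CD8) limit depth, and counting intervals cover counting error only.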
